A study of Olea europaea with 6 samples.

Results

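The transcripts described here are 2 olive ESTs (expressed sequence tags, short reads of cDNA clones) of the hormones that plants use in defense. GO246036_1 was annotated by the study with salicylic acid metabolism. FL683585_1 was annotated with the synthesis of jasmonic acid and with responses to jasmonic acid, wounding and fungus. They are 2 of the 5543 olive ESTs and of the 54615 probe sets tested on the array, and each was read by a probe set of 3 oligonucleotides. Both were chosen by the study's own lists of changed transcripts, which rest on these arrays. GO246036_1 was listed for unripe against ripe fruit and for the mature on-year leaves against the juvenile on-year leaves and against the mature off-year leaves. FL683585_1 was listed for the juvenile leaves of the on year against those of the off year. The values of those contrasts are given as a description without a test, as is the interaction of year and leaf stage.

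The arrays came from olive (Olea europaea cv. Ayvalık), a tree that alternates between years with a heavy crop (on) and years with a light one (off). Fruits were unripe (UF, July) or ripe (RF, October) and came from a tree in its on year. Leaves were taken in July (juvenile, J) and in November (mature, M). Those of the first year were on-year leaves (ON-J, ON-M), and those of the following year were off-year leaves (OFF-J, OFF-M). Double-stranded cDNA made from total RNA was labelled with Cy3 and hybridized to a one-colour array that also carried 49072 poplar gene models. There were 2 arrays for each group and 1 for ON-M, 11 in all. The on-year and off-year leaves came from neighbouring trees, so that bearing year, calendar year and tree cannot be told apart. The fruits were collected in the calendar year of the off-year leaves but from an on-year tree. No leaf group matches them in both, and fruit-to-leaf differences cannot be assigned to organ alone. The study's methods describe 2 neighbouring trees for the leaves, so the arrays of a leaf group may share 1 tree. They call the arrays of a group biological replicates, without saying whether they were from different trees. The p-values therefore cover the spread between the arrays at hand, and this spread may be technical.

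Salicylic acid is made from chorismate, through isochorismate or phenylalanine, and is stored or moved as glucose conjugates and as the methyl ester. It is best known for defense against pathogens that live on living tissue and for systemic acquired resistance, in which an infection at one site raises the resistance of distant leaves. Jasmonic acid is made from linolenic acid of plastid membranes by lipoxygenase, allene oxide synthase and allene oxide cyclase, and the chain is shortened in peroxisomes. It is the main signal of wounding and of attack by chewing insects and also acts in flower and fruit development. In olive fruit the lipoxygenase step feeds the volatile compounds of the oil as well. Which enzyme or protein either EST encodes is not stated by the annotation.

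Values are log2 units of the deposited, normalized signal, in which 1 unit is a factor of 2. A probe set of random sequence, which reads background, lay between 5.18 and 5.48 on the 11 arrays. Bounds set against it below hold for the deposited scale only. Among the replicate pairs, the squared correlation over all probe sets was 0.826 for RF and between 0.932 and 0.978 for the others. The median of the olive ESTs was also lowest in RF, 9.83 and 10.22. It was 10.66 on the ON-M array, the next lowest, and between 10.80 and 11.43 on the other arrays. A pair of marker ESTs, which the study listed for the fruit contrast on these arrays and which therefore describe RF without checking the other labels, had the following values. GO243351_1, annotated with photosystem assembly, lay at 4.88 and 4.98 in RF and between 12.69 and 13.22 elsewhere. FL683529_1, annotated with anthocyanin synthesis, lay at 15.21 and 15.05 in RF and between 5.73 and 7.52 elsewhere.

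GO246036_1 was bright in green tissue and at background in ripe fruit. Its values were 12.84 and 12.71 in UF and 4.02 and 5.16 in RF. Both RF values were under the random control of the same array, which read 5.36 and 5.48. The July leaves were as bright as the unripe fruit, at 12.73 and 12.72 in OFF-J and 12.65 and 12.28 in ON-J. The November leaves were dimmer, at 11.10 and 11.14 in OFF-M and 9.03 on the ON-M array. In whole tissue, fewer cells of a type and less RNA per cell cannot be told apart.

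**Figure D1:**
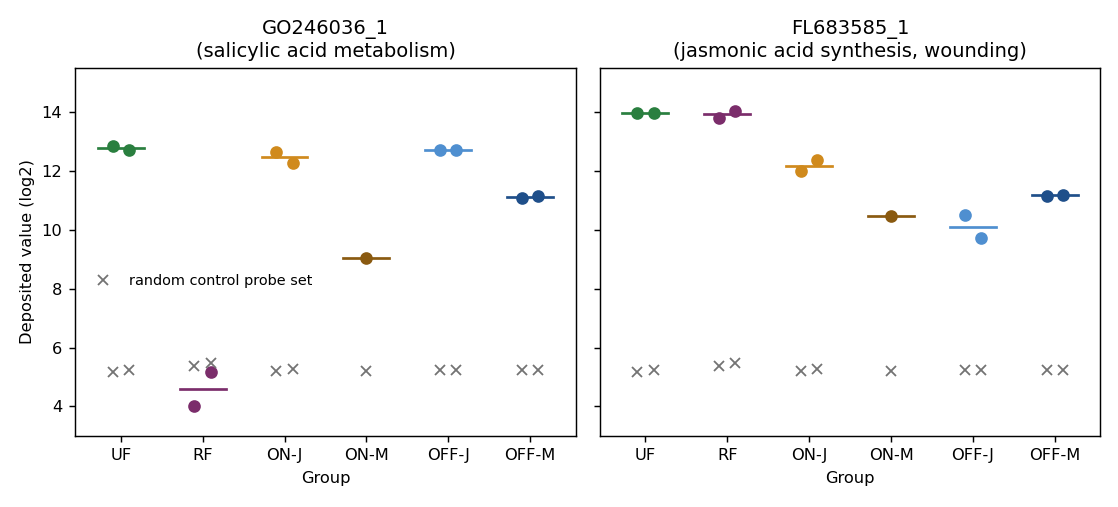
Deposited log2 values of GO246036_1 and FL683585_1 on each of the 11 arrays by group, with points for arrays, bars for group means and crosses for the random control probe set of the same array. GO246036_1 fell below the crosses in RF alone, at 4.02 and 5.16, whereas FL683585_1 stood highest in UF and RF, between 13.82 and 14.04.

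FL683585_1 was a fruit-bright EST that was measured in every tissue. Its values were 13.98 and 13.96 in UF and 13.82 and 14.04 in RF, and the 2 fruit stages overlapped. All leaf arrays lay lower. They read 12.00 and 12.38 in ON-J, 11.17 and 11.20 in OFF-M, 10.47 on the ON-M array, and 10.51 and 9.71 in OFF-J. The lowest of the 11 values was still 4.33 units under the highest and more than 4 units above the random control.

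Ranked by group mean, GO246036_1 had the order UF (12.78 ± 0.10, SD, n = 2), OFF-J (12.72 ± 0.001, n = 2), ON-J (12.46 ± 0.26, n = 2), OFF-M (11.12 ± 0.03, n = 2), ON-M (9.03, n = 1) and RF (4.59 ± 0.80, n = 2). UF and OFF-J overlapped. OFF-J lay 0.26 above ON-J, with a gap of 0.075 between their nearest arrays, less than the SD of ON-J. The other neighbouring groups did not overlap either, and the gaps between their nearest arrays were 1.14, 2.07 and 3.88. For FL683585_1 the order was UF (13.97 ± 0.01, n = 2), RF (13.93 ± 0.16, n = 2), ON-J (12.19 ± 0.27, n = 2), OFF-M (11.19 ± 0.03, n = 2), ON-M (10.47, n = 1) and OFF-J (10.11 ± 0.56, n = 2). UF overlapped RF, and the ON-M array fell within the range of OFF-J. The gaps between the other neighbours were 1.44, 0.80 and 0.70.

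The fruit comparison asked which transcripts change as the fruit ripens. GO246036_1 lay 8.19 units higher in UF than in RF (SE 0.35). Because both RF arrays were under the random control, that size depends on the background. Set against the higher of its own value and the control on each RF array, the EST was at least 164-fold higher in UF, or 7.36 units, on the deposited scale. With each array centred on its olive median, the difference itself was 7.18. This contrast chose the EST, and 33.0% of all probe sets and 52.6% of olive ESTs had an adjusted p under 0.05 in it.

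FL683585_1 was not chosen on the fruits. Its UF minus RF difference was 0.04 (SE 0.29, adjusted p = 0.924, limma with Benjamini-Hochberg adjustment over all probe sets), and the 95% interval ran from -0.62 to 0.71. The sign of this small difference rests on the scaling. When each array was centred on its olive median, which moved the median of all probe sets from -0.03 to -1.04, the difference was -0.97 with an adjusted p of 0.0126, close to that shift.

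Fruits and leaves of the same season were compared next, the unripe fruit with the mean of the July leaves and the ripe fruit with the mean of the November leaves. Each leaf mean joined the on-year and the off-year leaves. In July GO246036_1 did not separate fruit from leaf. UF lay 0.18 above the juvenile leaves (SE 0.30, limma adjusted p = 0.91), with a 95% interval from -0.50 to 0.87. UF and ON-J also stand, as the brighter groups, in contrasts that chose this EST. In autumn RF lay at -5.48 against the mature leaves (SE 0.33), and as a bound over the random control the mature leaves were at least 25.2-fold higher. This is a description, since the low RF value and the ON-M array stand in contrasts that chose this EST.

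FL683585_1 was higher in fruit than in leaf at both seasons. UF exceeded the juvenile leaves by 2.82 (SE 0.25, limma adjusted p = 0.000398), a factor of 7.07. RF exceeded the mature leaves by 3.10 (SE 0.27, limma adjusted p = 8.42e-05), a factor of 8.57. The fruit arrays overlapped no leaf array in either comparison. The July leaves also stand in the contrast that chose this EST, whereas RF and the November leaves do not. By the same test 3.66% of all probe sets and 22.2% of olive ESTs passed in the July comparison, and 39.7% and 58.7% in the autumn one, so that a pass in autumn was common among olive ESTs.

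**Figure D2:**
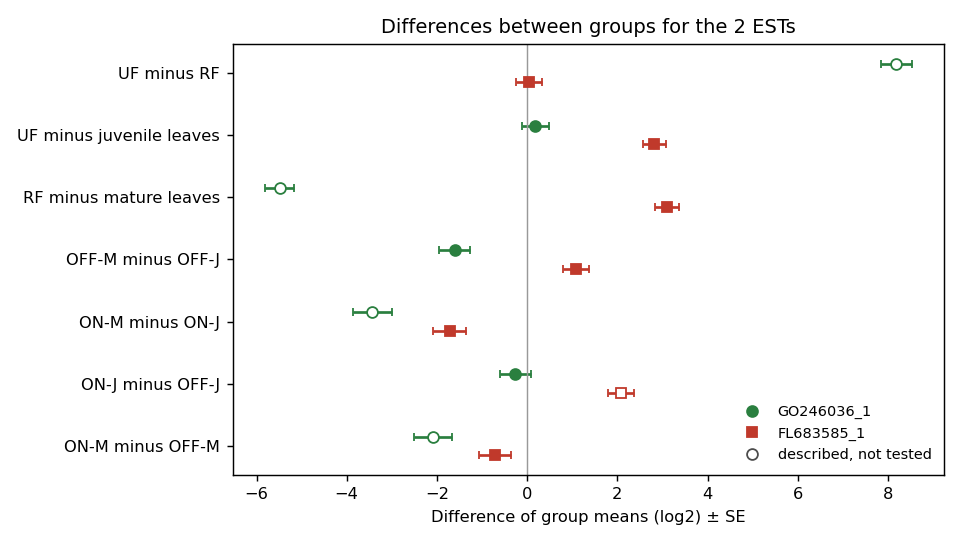
Differences of group means in log2 units with their standard errors for GO246036_1 (circles) and FL683585_1 (squares), where open symbols are differences described without a test, because the contrast or its RF arrays chose the EST. The fruit-to-leaf differences of FL683585_1 were 2.82 and 3.10, and that of GO246036_1 in autumn was -5.48.

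The leaf comparisons asked what differs between July and November leaves and between the years. GO246036_1 was lower in November in both years. The off-year difference, which did not choose the EST but shares OFF-M with a contrast that did, was -1.61 (SE 0.35, limma adjusted p = 0.0986), a factor of 3.05, and missed the threshold although the 2 groups did not overlap. The spread behind this test came mostly from the fruits, since 89.1% of the EST's squared deviations from its group means were on the RF arrays. The pooled SD was 0.38 with RF and 0.14 without it. With both RF arrays left out of the fit, a choice made after the data were seen, the difference stayed at -1.61 and the limma adjusted p was 0.00714. With each array left out in turn, the difference ran from -1.63 to -1.59. It did not pass without a UF, OFF-J, OFF-M or ON-J array. In this comparison 0.967% of all probe sets and 7.83% of olive ESTs passed the test.

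The on-year difference of GO246036_1 between the ON-M array and ON-J was -3.43 (SE 0.43), which is a value of a contrast that chose it. There 0.698% of all probe sets and 5.86% of olive ESTs passed. Between years, the ON-M array lay at -2.08 against OFF-M (SE 0.43), another contrast that chose it, where 0.165% and 1.21% passed. The July leaves gave a difference of -0.26 for ON-J minus OFF-J (SE 0.35, limma adjusted p = 0.971), with a 95% interval from -1.05 to 0.53. ON-J also stands in a contrast that chose this EST. The on-year step less the off-year step was -1.82 units (SE 0.55), a description that rests on 1 ON-M array. That array had the lowest olive median of the leaf arrays, 10.66. With each array centred on its olive median, ON-M minus ON-J was -2.77, ON-M minus OFF-M was -1.38 and the difference of the steps was -0.75.

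FL683585_1 had steps of opposite sign in the 2 years, and neither passed the test. From July to November it was higher by 1.08 in the off year (OFF-M minus OFF-J; SE 0.29, limma adjusted p = 0.215). In the on year the ON-M array lay at -1.72 against ON-J (SE 0.36, limma adjusted p = 0.0944). The off-year step was 1.48 without the first OFF-J array and 0.68 without the second. In each year the July and November values did not overlap. OFF-J and ON-J, the July groups of these steps, are the groups that chose the EST. A choice for high ON-J and low OFF-J by itself favours steps of these signs. The p-values of both steps therefore cannot support them.

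In July FL683585_1 was 2.08 higher in the on-year leaves than in the off-year leaves (SE 0.29), a factor of 4.24, and this contrast chose it. In that contrast 0.0% of all probe sets passed at an adjusted p under 0.05 in limma, and 0.0% of olive ESTs. At an unadjusted p under 0.05 there were 3357 of all probe sets. The methods' t-test gave 0 after adjustment, and limma with a trended, robust prior gave 5 higher and 6 lower. By November the order of the years was the reverse in value, with ON-M minus OFF-M at -0.72 (SE 0.36, limma adjusted p = 0.898) and a 95% interval from -1.53 to 0.10. With olive-median centring, this November difference was -0.01.

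The other transcripts that the study's tables annotated with these hormones were 20 in number, 12 olive ESTs and 8 poplar gene models. Of them 10 carried salicylic acid or systemic acquired resistance, 7 jasmonic acid and 10 wounding, with overlaps. All were listed on leaf contrasts of these same arrays, so their leaf counts are a description. None was in the study's printed list for the fruits, which holds only its largest differences. A call below means an adjusted p under 0.05 and a difference of at least 2 log2 units.

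In the fruits 6 of the 20 were called higher in UF and 1 lower. All 6 were olive ESTs, against a background of 17.3% of olive ESTs and 3.46% of all probe sets called higher. The salicylic acid list held 5 of them, of its 10 transcripts, and its median difference was 1.36 against 0.11 for all olive ESTs. None of these 10 was called lower in limma or by the methods' t-test, and the 1 that passed in limma, before and after adjustment, was GO243143_1 with a difference of -1.29. The jasmonic acid list had 1 of 7 higher and 1 lower, with a median of 0.55, and the wounding list 1 of 10 higher and 1 lower, with a median of -0.60. Calls lower in UF made up 3.73% of olive ESTs and 3.3% of all probe sets. With arrays centred on the olive medians 4 were called higher and 5 lower, and without the first RF array 6 and 3.

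Among the salicylic acid ESTs, GO246421_1 and GO245488_1 followed GO246036_1 array by array. Both were annotated with salicylic acid metabolism and signalling, systemic acquired resistance and defense against fungus. GO246421_1 read 11.27 and 11.16 in UF, 4.01 and 4.59 in RF, 11.24 and 10.96 in OFF-J, 9.62 and 9.35 in OFF-M, 11.16 and 10.99 in ON-J and 6.40 on the ON-M array. It fell from UF to RF (6.92 higher in UF, SE 0.26, limma adjusted p = 1.02e-06), and with both RF arrays under the random control this was at least 55.6-fold. GO245488_1 read 11.56 and 11.44 in UF, 5.50 and 6.53 in RF, 11.42 and 11.46 in OFF-J, 9.77 and 9.55 in OFF-M, 11.43 and 10.91 in ON-J and 7.06 on the ON-M array. It was 5.49 higher in UF (SE 0.35, limma adjusted p = 1.56e-05).

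The 3 ESTs thus shared bright July leaves and unripe fruit, dimmer OFF-M, a still lower ON-M array and ripe fruit at or near background. Over the 11 arrays GO246036_1 correlated with GO246421_1 at r = 0.983 and with GO245488_1 at r = 0.964, and over the 9 arrays without RF at 0.990 and 0.998. These are descriptions over arrays that share normalization and, in pairs, a tissue. All 3 ESTs were listed for ON-M against ON-J and against OFF-M. Their shared low ON-M value, and the part of the correlations that rests on it, therefore follow from how they were chosen. Whether the 3 ESTs read the same gene or close copies was not tested, since no sequences of them were at hand.

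GO243378_1, annotated with the response to salicylic acid, had the same order of fruit stages and was 4.75 higher in UF (SE 0.24, limma adjusted p = 4.55e-06). FN997722_1, annotated with systemic acquired resistance and proteolysis, was lost in ripe fruit but not in mature leaves. It read 11.15 and 11.20 in UF and 5.69 and 6.27 in RF, yet 12.18 and 12.26 in OFF-M and 12.21 on the ON-M array, and was 5.20 higher in UF (SE 0.30, limma adjusted p = 1.07e-05). GO245328_1, annotated with salicylic acid synthesis and callose defense, was 2.27 higher in UF (SE 0.24, limma adjusted p = 0.000358). The rest of this list had smaller differences between the fruits, such as 0.34 for GO245562_1, -0.60 for GO245644_1 and -1.29 for GO243143_1, which is annotated with responses to both hormones and to wounding.

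**Figure D3:**
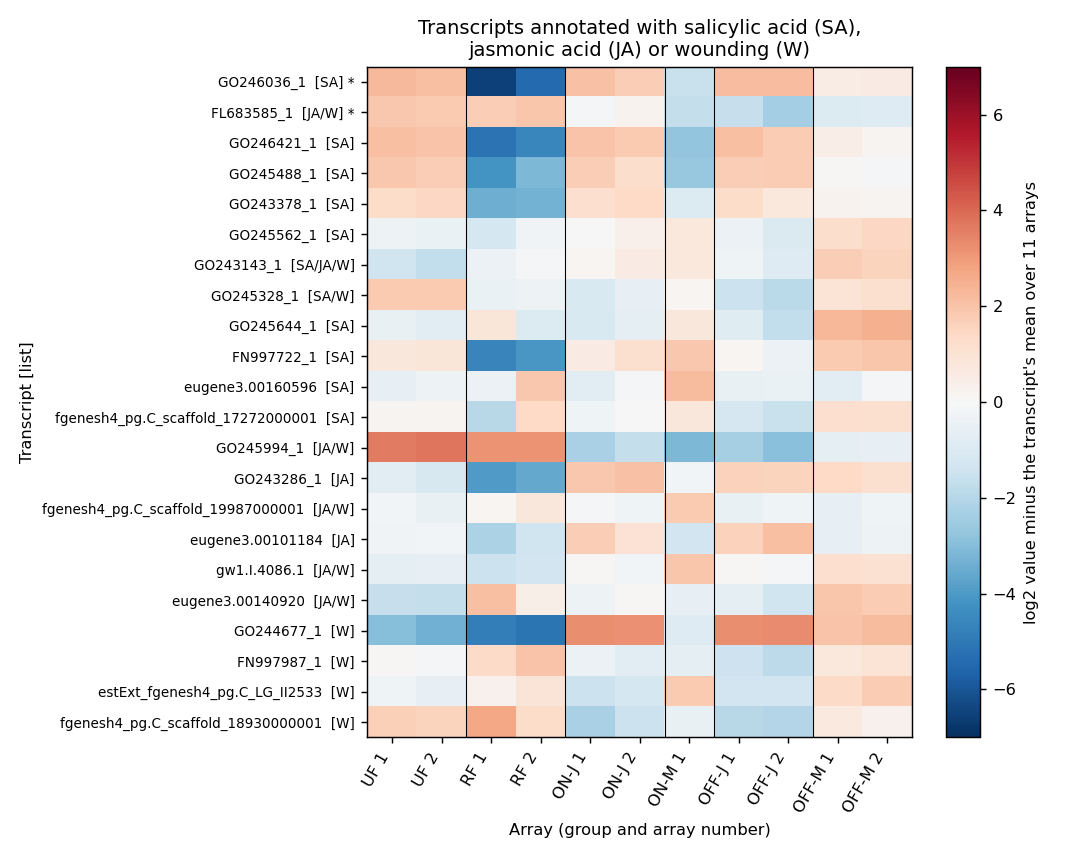
Log2 values of the 22 transcripts annotated with salicylic acid (SA), jasmonic acid (JA) or wounding (W) on each array, less each transcript's mean over the 11 arrays, with stars on GO246036_1 and FL683585_1. GO246421_1 and GO245488_1 repeat the dark blue RF and paler blue ON-M cells of GO246036_1, and GO245994_1 shares the fruit-bright pattern of FL683585_1.

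Among the jasmonic acid transcripts, GO245994_1 came nearest to FL683585_1. It is annotated with jasmonic acid synthesis, protein targeting to the vacuole and wounding. Its values were 15.12 and 15.22 in UF, 14.62 and 14.63 in RF, 9.19 and 8.55 in OFF-J, 10.83 and 10.92 in OFF-M, 9.21 and 9.80 in ON-J and 8.33 on the ON-M array. The fruit arrays lay above every leaf array. UF exceeded the juvenile leaves by 5.99 (SE 0.25, limma adjusted p = 4.27e-06), RF exceeded the mature leaves by 5.02 (SE 0.27, limma adjusted p = 3.94e-06), and UF minus RF was 0.55 (SE 0.29, limma adjusted p = 0.173). Of the leaf groups, OFF-J, OFF-M and ON-M also stand in contrasts that chose GO245994_1. Its correlation with FL683585_1 was 0.916 over the 11 arrays and 0.460 over the 7 leaf arrays, so the likeness lay chiefly in the split of fruit and leaf.

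Other transcripts of the jasmonic acid list went other ways. GO243286_1, a plastid EST with jasmonic acid synthesis among its terms, was 2.81 higher in UF than in RF (SE 0.24, limma adjusted p = 9.51e-05) but -2.75 in UF against the juvenile leaves (SE 0.21, limma adjusted p = 0.000142). ON-J also stands in the contrast that chose GO243286_1. The poplar model of LOX3, which in Arabidopsis is a lipoxygenase of jasmonic acid synthesis, lay between 4.28 and 5.63 on all arrays but ON-M, near the random control, and at 6.68 on ON-M. The poplar model eugene3.00140920, chalcone synthase, which opens flavonoid synthesis, was called lower in UF, at -2.90 against RF (SE 0.49, limma adjusted p = 0.00323). Its RF arrays differed, at 8.48 and 6.81, and both UF arrays were under the random control, over which RF was at least 5.40-fold higher, or 2.43 units. In the wounding list, FN997987_1 (MAPK cascade) lay at -1.69 for UF minus RF, and the leaf-bright GO244677_1, annotated with vascular patterning, at 1.81, both under the size of a call.

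In the leaves, every call among the 20 was of a transcript that the study had listed for that same contrast. For ON-M minus ON-J 3 were called higher and 6 lower, and 10 had been listed there, beside 0.0677% of all probe sets called higher and 0.485% lower. GO246421_1 (-4.67), GO244677_1 (-4.14) and GO245488_1 (-4.11) had the largest negative values, followed by eugene3.00101184 (CUT1, of wax synthesis, -2.71), GO243378_1 (-2.24) and GO243286_1 (-2.18). The 3 positive ones were poplar models, estExt_fgenesh4_pg.C_LG_II2533 (a putative tyrosine decarboxylase, 3.19), the LOX3 model fgenesh4_pg.C_scaffold_19987000001 (2.05) and the model of ZAT10 (a zinc finger transcription factor, 2.01). The LOX3 model was under the random control on both ON-J arrays, and over the control the ON-M array was at least 2.72-fold higher, or 1.44 units, which is less than the size of a call. For eugene3.00101184 the ON-M array was under the control, and ON-J was at least 6.35-fold higher. When either ON-J array was left out, 5 of the 20 were called.

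For OFF-M minus OFF-J 10 were called higher and 1 lower, with 12 listed, beside 0.341% of all probe sets called higher and 0.0439% lower. The higher ones included GO245644_1 (3.69), GO245328_1 (2.71), FN997987_1 (2.49), GO243143_1 (2.22), GO245562_1 (2.07), FN997722_1 (2.05) and GO245994_1 (2.01). The poplar models were eugene3.00140920 (2.88), estExt_fgenesh4_pg.C_LG_II2533 (2.88) and fgenesh4_pg.C_scaffold_18930000001 (an acidic endochitinase, 2.49), and eugene3.00101184 was lower (-2.31). Of these, eugene3.00140920 was under the random control on 1 of its 2 OFF-J arrays. This count depended on single arrays and was 4 when either UF array was left out, 6 and 2 without the first and the second OFF-J array, 2 and 0 without the first and the second OFF-M array, and 7 with olive-median centring. For ON-M minus OFF-M 3 were called lower, GO246421_1 (-3.09), GO244677_1 (-3.04) and GO245994_1 (-2.55), with 7 listed and 0.126% of all probe sets called lower and 0.0293% higher. When either RF array was left out there were 7, and without the first OFF-M array 1.

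For ON-J minus OFF-J, which listed none of the 20, limma called 0 of them, and 0.0% of all probe sets higher and 0.0% lower. At an unadjusted p under 0.05 there were 5 of the 20, none of them by 2 units, and the methods' t-test had 1 before and 0 after adjustment. Neither eugene3.00160596 (RHF2A) nor fgenesh4_pg.C_scaffold_17272000001 (LOL3), both on the salicylic acid list, was called in a contrast. RHF2A was near the random control outside the second RF array (7.31) and ON-M (7.61).

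The olive ESTs most like each of the 2 were sought by Pearson correlation over the 11 arrays among the other 5542 olive ESTs. For GO246036_1 these were GO243189_1 (r = 0.993), annotated with cutin synthesis and epidermis and trichome development, GO243798_1 (0.991), annotated with very long-chain fatty acids and cuticle, GO243378_1 (0.991), FN998421_1 (0.990) and GO244894_1 (0.988), annotated with lipid metabolism. GO243189_1 read 12.57 and 12.65 in UF, 4.70 and 5.16 in RF and 8.51 on the ON-M array. Such a likeness was common, since 486 olive ESTs had r above 0.9, and 107 did without the RF arrays. For these 5 the correlation without RF stayed between 0.953 and 0.989.

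For FL683585_1 the first 5 had lower correlations. They were GO243809_1 (r = 0.949), FL683793_1 (0.947), GO244461_1 (0.940), GO245127_1 (0.940) and FL683755_1 (0.939). Over the 11 arrays 58 olive ESTs exceeded 0.9, against 486 for GO246036_1. Without RF 159 did, against 107 for GO246036_1. Over the 7 leaf arrays the correlations of the first 5 ran from 0.641 to 0.893. FL683755_1, for example, read 13.58 and 13.55 in UF and 14.46 and 14.55 in RF but between 7.77 and 9.22 in the leaves. The correlation between GO246036_1 and FL683585_1 was -0.392 over the 11 arrays and 0.399 over the 9 without RF, so its sign rested on the ripe fruit.

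**Figure D4:**
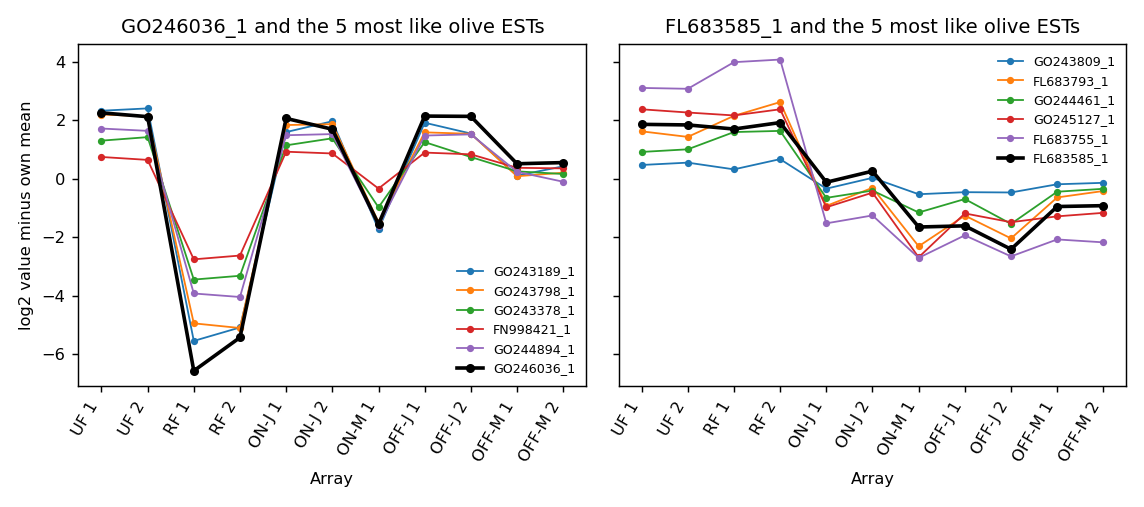
Log2 values less each EST's own mean on the 11 arrays for GO246036_1 and FL683585_1 (black) and the 5 olive ESTs most like each (coloured), with lines that only join the arrays of 1 EST. All 6 on the left drop on the RF arrays and less deeply on ON-M, and all 6 on the right stand highest on the 4 fruit arrays.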

How the data were processed

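The Cy3 arrays were read in DEVA by the authors, who removed the background, normalized by quantiles, summarized probe sets by RMA and deposited log2 values per probe set and array. The RMA version is not given in the sources used here. These log2 values were used as deposited. Arrays of a sample are numbered in file order, and the number only names them. A deposited table of averaged values equalled the array means wherever it held a value. The array's 1 random control probe set was left out of the tests.

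A mean per group was fitted with limma 3.58.1 in R 4.3.3 (5 residual degrees of freedom, 3.67 prior), two-sided, with Benjamini-Hochberg adjustment over 54615 probe sets. The spread of ON-M came from the other groups. The step was tested on simulated data. Other tables were made with pandas 2.3.3, scipy 1.17.1 and numpy 2.4.6 in Python 3.11.15, and plots with matplotlib 3.10.9. Precision is limited by the number of arrays.

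The 2 ESTs, the list of 22 transcripts and the tests were chosen with earlier results of these data known. The text names both ESTs, the list's transcripts and the 5 most like ESTs of each. Annotations are the study's, as the RefSeq gene table matched 0 olive ESTs. The alternatives were other centrings, quantile normalization repeated, another prior, fewer arrays or probe sets, the methods' t-test, a replicate block, the averaged table and other measures of likeness.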

Additional observations from a re-analysis of the deposited data

Results flagged for a closer look

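A step between July and November leaves that ran in opposite directions in the 2 years, on every array, was found for 3 of the 22 transcripts, and the difference between the years was not tested, since leaf contrasts of these arrays chose the transcripts. FL683585_1 was at -1.72 in the on year and 1.08 in the off year, a difference of -2.80 between the steps. GO245994_1, also annotated with jasmonic acid synthesis and wounding, was at -1.17 and 2.01, a difference of -3.18. The poplar chalcone synthase model eugene3.00140920 was at -0.44 and 2.88, a difference of -3.32. Its on-year step was smaller than its SE of 0.60, so the sign of that step is not settled. Olive-median centring moved the median of the olive ESTs in ON-M minus ON-J from -0.20 to 0.46, a shift larger than that step. The OFF-J values of this model lay at the background, 1 of 2 under the random control. Over the control its off-year step was at least 2.75, so -3.32 is not a firm size. GO245994_1 and eugene3.00140920 were listed for OFF-M against OFF-J and for ON-M against OFF-M, and FL683585_1 for ON-J against OFF-J. Such choices by themselves favour steps of these signs. Steps that were negative in the on year and positive in the off year made up 13.64% of the 22 transcripts, against 20.06% of the olive ESTs and 6.35% of all probe sets, and the on year has 1 November array.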

How the results depend on the processing

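Of 183 alternatives over the 9 differences given with a test, 168 kept their side of the threshold. Among these, FL683585_1 UF minus RF changed sign without the first RF array, from 0.04 to -0.07, and passed in neither fit. Leaving out an array of a group outside a contrast could not change its difference. All alternatives kept the fruit-to-leaf calls of FL683585_1, and GO246036_1 passed in no alternative for ON-J minus OFF-J or UF minus juvenile leaves. FL683585_1 UF minus RF turned to -0.97 with olive-median centring (0.0126). GO246036_1 OFF-M minus OFF-J passed at -1.61 with a trended prior (adjusted p = 0.0256), a mean log2 of at least 6 (0.0489), olive sets only (0.00979), no RF arrays (0.00714, chosen after seeing the data), compared groups only (0.0309) and the methods' t-test before adjustment (0.000135), and at -2.02 with olive-median centring (0.028). Its adjusted p ran up to 0.465. FL683585_1 ON-M minus ON-J passed at -1.72 with a trended prior (0.0137), a mean of at least 6 (0.0453) and olive sets only (0.00754), and OFF-M minus OFF-J at 1.08 with a trended prior (0.0462) and olive sets only (0.0185). The July groups of these 2 steps of FL683585_1 chose the EST, so the passes are no support for the steps. The causes of the changes between alternatives were not tested, beyond fewer probe sets or arrays entering a fit.

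Olive-median centring moved the described values of GO246036_1 to 7.18 (UF minus RF), -2.77 (ON-M minus ON-J), -1.38 (ON-M minus OFF-M) and -0.75 (interaction), and those of FL683585_1 to 1.72 (ON-J minus OFF-J) and -1.73 (interaction). It gave 5 listed transcripts lower in UF and 7 called for OFF-M minus OFF-J. At any size 4 were lower in UF. For ON-M minus OFF-M a trended prior called 5 and the fit without RF 7.

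With each array left out in turn, GO246036_1 ran from 7.62 to 8.75 for UF minus RF and from -1.63 to -1.59 for OFF-M minus OFF-J, and FL683585_1 from 1.68 to 2.48 for ON-J minus OFF-J and from -3.20 to -2.40 for the interaction. The list counts ran from 1 to 3 (lower in UF), 5 to 10 (ON-M minus ON-J), 0 to 12 (OFF-M minus OFF-J) and 1 to 7 (ON-M minus OFF-M). Replicate numbers follow file order and stand for no known pairing. Deviations of same-numbered arrays correlated between -0.046 and 0.152, which cannot show whether arrays were paired in another order. With a replicate block GO246036_1 OFF-M minus OFF-J had a limma adjusted p of 0.151 and no member call changed. The lists then had 6, 9 and 2 calls in the same 3 leaf contrasts. Of the 5 ESTs most like GO246036_1, 3 were shared with the ranking on group means and 1 with that on distance, and of FL683585_1's, 1 and 0.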
